A study of Homo sapiens with 15 samples.

Results

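The 34 genes described here build the protein-folding compartment of the endoplasmic reticulum (ER) and the unfolded protein response that watches over it. They were taken as a list of names, chosen with earlier results of these data known. The names were matched by symbol to the gene identifiers of the count files, and all 34 were found among the 58381 genes counted. Their RNA was measured by bulk RNA-seq in 5 sublines of VCaP, an established prostate cancer cell line that carries the TMPRSS2-ERG fusion, with 3 libraries per subline and 15 in all. All sublines came from one stock kept in RPMI with DCC-FBS. Testosterone was kept at 10 nM over 7 months for VCaP-T, and VCaP-CT arose from it by another 10 months at 0.1 nM. VCaP-CT-ER, called VCaP-CT-ET in the protocol, grew out of VCaP-CT under 10 µM enzalutamide (ENZ), an antagonist of the androgen receptor. VCaP-CT-BR was VCaP-CT grown with bicalutamide, an older antagonist, and VCaP-CT-BR-ER grew out of these cells under ENZ. The sample labels list 10 nM testosterone for every subline, against the 0.1 nM of the protocol, and the label of VCaP-CT-BR mentions ENZ after bicalutamide as well. One derivation of each subline is described, so treatment, time in culture and derivation cannot be told apart.

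Proteins that enter the ER are folded by chaperones such as HSPA5 (BiP), HSP90B1 (GRP94), calreticulin and calnexin, joined by disulfide isomerases, and those that fail are passed back to the cytosol for degradation. When unfolded protein builds up, the sensors IRE1 (ERN1), PERK (EIF2AK3) and ATF6 respond: IRE1 splices the XBP1 message, PERK slows translation and raises ATF4, and ATF6 is cut in the Golgi to release a transcription factor. Luminal prostate cells secrete heavily and depend on this machinery, and gene counts show neither the splicing of XBP1 nor the activity of a sensor.

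The libraries held 33665716 to 46935279 counted fragments, of which 7.18% to 9.56% fell on mitochondrial genes. Each of the 15 libraries correlated best with another of its own subline. All 10 luminal and VCaP markers reached 1 CPM (counted fragments of the gene per 1000000 counted in the library) in every library, with a sum of 2836 to 9210 CPM. Markers of fibroblasts, leukocytes, endothelium and basal epithelium summed to at most 8.37, 0.993, 16.3 and 11.1 CPM, and neuroendocrine markers to 9.14 to 72.8 CPM. The study describes its replicates as biological, and nothing in the labels says that they were grown apart, so p-values measure the spread between these libraries alone.

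Of the 34 genes, 32 passed the filter on low counts. The exceptions were ATF6B, a relative of the sensor ATF6, with 1 count over all 15 libraries, and DERL3, a channel component of ER-associated degradation, with 0. Neither value is read here as a level of the gene. Around ATF6B, at chr6:32115264-32128253 on GRCh38, 51 of the 54 protein-coding genes within 500 kb had at most 3 counts over all libraries together, and around DERL3, at chr22:23834503-23839128, 9 of 19 did. Over all 19102 protein-coding genes the share was 15.5%. Fragments that map to several places were not counted in these files, and their part in these low counts was not tested.

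Summed over the members, RNA of the ER folding machinery was most abundant in the ENZ-resistant sublines. Together the members took 0.845%, 0.889% and 0.881% of the 3 VCaP-T libraries and 0.889%, 0.831% and 0.864% of those of VCaP-CT. In VCaP-CT-ER they took 1.30%, 1.29% and 1.36%. The libraries of VCaP-CT-BR had 0.815%, 0.781% and 0.793%, and those of VCaP-CT-BR-ER 1.04%, 0.986% and 1.03%. Every library of the ENZ-resistant sublines lay above every library of the others, and VCaP-CT-ER lay above VCaP-CT-BR-ER. Member by member the order was another one: VCaP-CT-ER had the highest mean of 17, VCaP-T of 13 and VCaP-CT-BR-ER of 1. These counts do not rank VCaP-CT-BR-ER against VCaP-T, since VCaP-CT-ER can lie above both. Set directly against each other, these sublines each had the higher mean in part of the members. VCaP-CT-BR-ER was higher for MANF (87.8 against 36.1 CPM) and CRELD2 (37.8 against 14.4 CPM). VCaP-T was higher for HERPUD1 (168 against 113 CPM) and ERN1 (97.3 against 28.6 CPM). Abundant members weigh most in the sum. In this sum 54.9% of the counts came from HSP90B1, CALR and CANX, and without them the mean share was 0.550% for VCaP-CT-ER and 0.470% for VCaP-CT-BR-ER, then 0.442% for VCaP-T, 0.396% for VCaP-CT and 0.343% for VCaP-CT-BR. HSPA5 stayed in these shares, with a mean of 1004 CPM for VCaP-CT-BR-ER against 531 for VCaP-T. The share of mitochondrial genes was also highest in both ENZ-resistant sublines, at 9.17% to 9.56% with VCaP-CT-ER and 8.58% to 8.94% with VCaP-CT-BR-ER, and its part in the result was not tested. With mitochondrial genes taken out of the denominator, the members held 1.45% for VCaP-CT-ER and 1.12% for VCaP-CT-BR-ER, against 0.864% to 0.950% in the other sublines. In bulk RNA, a smaller number of cells that express a gene and less RNA of it per cell cannot be told apart.

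**Figure D1:**
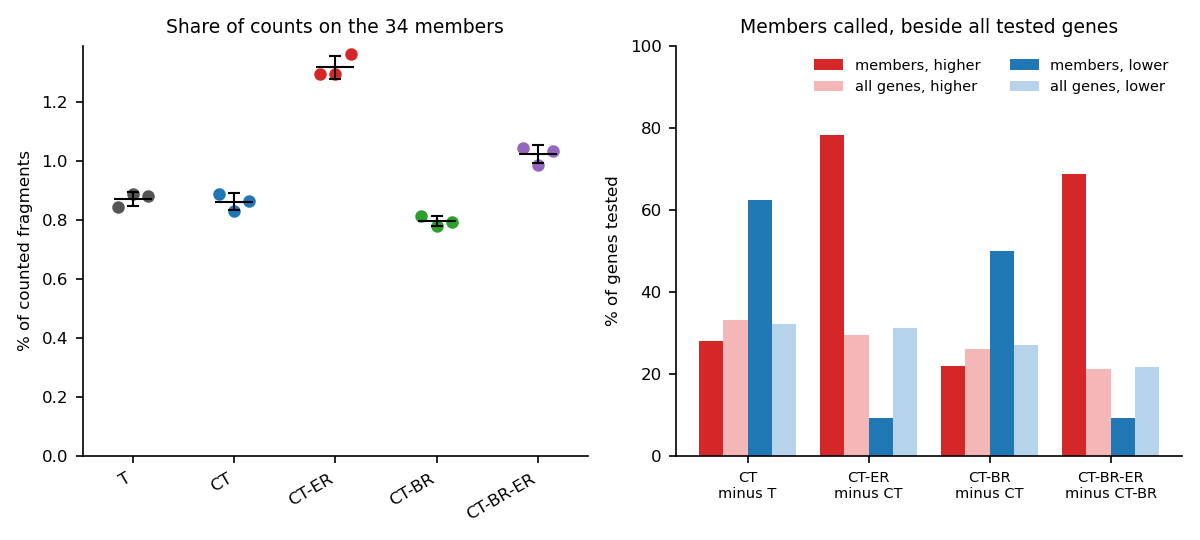
Left, percent of counted fragments on the 34 members in each library (points) with the mean and SD (black) of each VCaP subline. Right, percent of the 32 tested members that were higher or lower in each contrast by edgeR, beside the same percent over all tested genes; in VCaP-CT-ER minus VCaP-CT, 78.1% of the members were higher, against 29.6% of all genes.

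Per length, CALR led the members with a mean of 1717 TPM, the share of counts after division by gene length scaled to 1000000, over the 15 libraries, followed by HSP90B1 at 1030 TPM and CANX at 658 TPM. XBP1 came next at 560 TPM, above HSPA5 at 523 TPM. The sensors were scarce, with 19.6 TPM for ATF6, 11.9 TPM for EIF2AK3 and 9.67 TPM for ERN1. All 32 tested members differed among the 5 sublines by edgeR's quasi-likelihood test with Benjamini-Hochberg adjustment over 19621 genes, as did 88.9% of all genes, so this count says little about the members. VCaP-CT-ER had the highest mean CPM of 17 members, VCaP-T of 13, and VCaP-CT and VCaP-CT-BR-ER of 1 each. VCaP-CT-BR was highest for none. The median ratio of the highest to the lowest subline was 1.97, with 15 members over 2 and 2, CREB3L1 and ERN1, over 4.

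**Figure D2:**
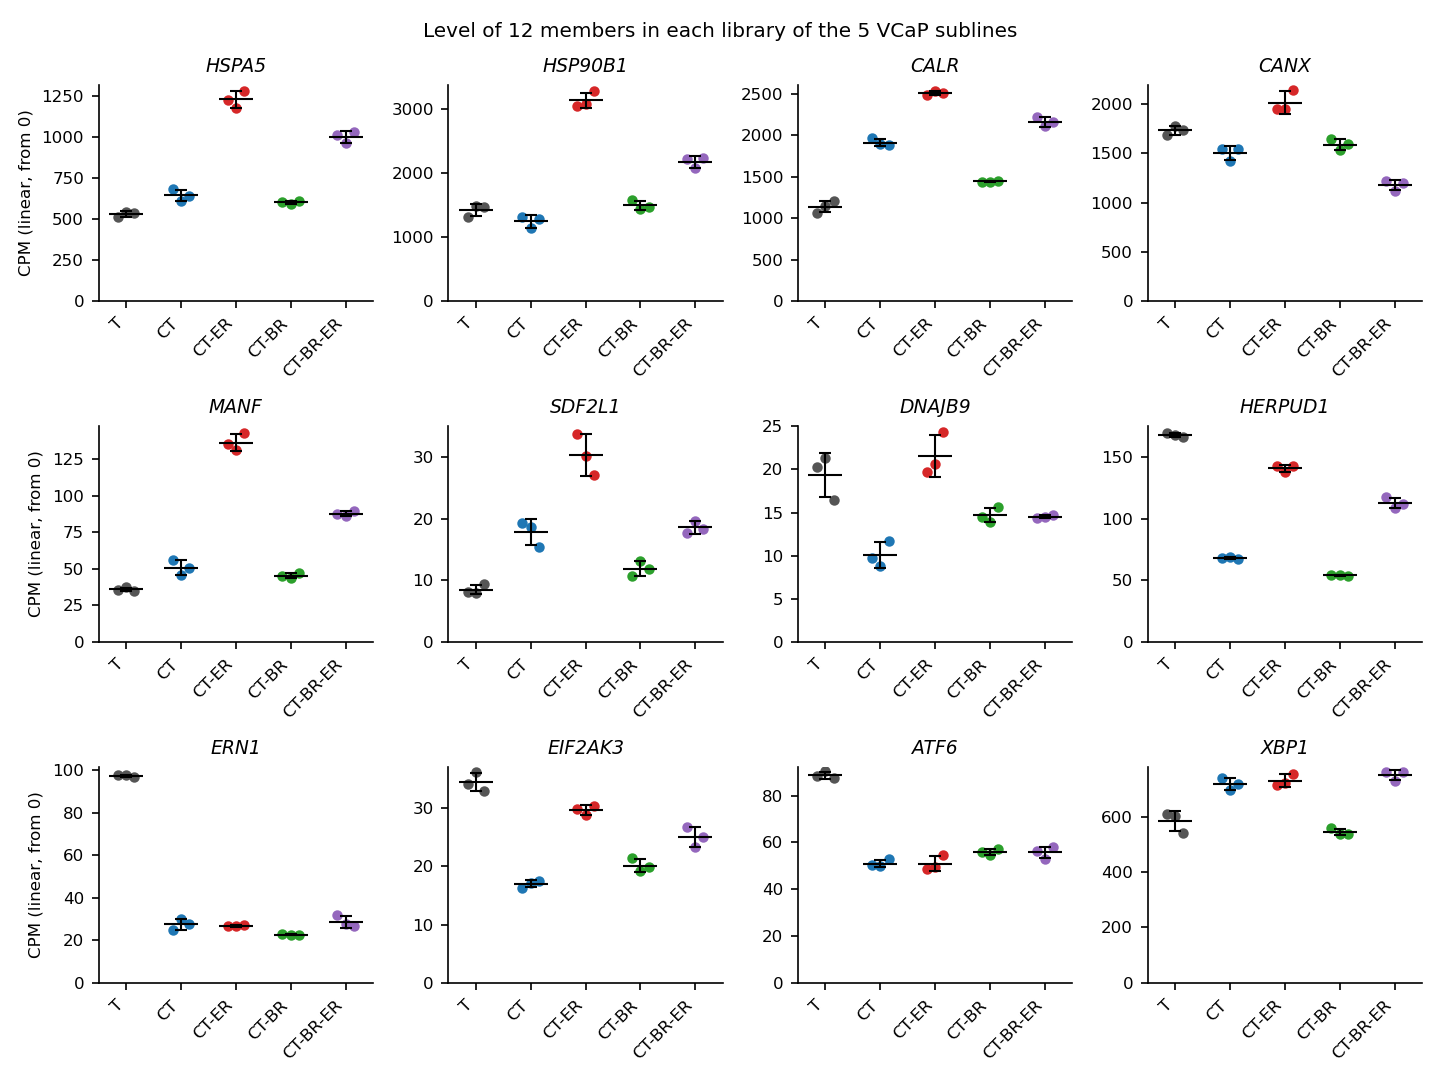
CPM on a linear axis from 0 of 12 members in each library (points), with the mean and SD (black) of each VCaP subline. The 3 sensors (ERN1, EIF2AK3, ATF6) were highest in VCaP-T, and HSPA5, HSP90B1, CALR and MANF in VCaP-CT-ER.

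On the passage from VCaP-T to VCaP-CT the sensors and most of the degradation genes fell, while CALR, HSPA5 and a few others rose. Of the 32 members, 20 were lower and 9 higher in VCaP-CT, against 32.2% of all genes lower and 33.1% higher. A change of at least 1.5-fold was reached by 12 lower and 3 higher members (19.2% and 18% of all genes). The median log2 fold change was −0.32 over the members and 0.03 over all genes. In 28 members the libraries of the sublines did not overlap. The same share over all genes was not worked out, so nothing particular to the members is read from this count.

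The sensor genes lie on GRCh38 with ERN1 at chr17:64039142-64130819 (minus strand), EIF2AK3 at chr2:88556741-88627576 (minus strand) and ATF6 at chr1:161766294-161964070 (plus strand). ERN1, the kinase and nuclease IRE1, had 97.7, 97.5 and 96.7 CPM in VCaP-T and 25.1, 30.1 and 27.5 CPM in VCaP-CT. It stayed between 22.5 and 31.7 CPM in all later libraries. The fall was 1.81 ± 0.07 on the log2 scale (SE; adjusted p = 1.04e-15, edgeR), which made ERN1 the tested member with the largest decrease in this contrast. EIF2AK3, the kinase PERK, fell from 34.2, 36.1 and 33.0 CPM to 16.3, 17.1 and 17.5 CPM, by 1.01 ± 0.07 (adjusted p = 2.23e-11). ATF6 fell from 88.4, 90.3 and 87.3 CPM to 50.4, 49.8 and 52.7 CPM, by 0.79 ± 0.06 (adjusted p = 6.45e-11). None of these groups overlapped. The 20 tested genes nearest to each of them on the chromosome, 10 on either side, had a median of −0.32 around ERN1, −0.33 around EIF2AK3 and −0.33 around ATF6, each smaller than the change of the sensor itself, and their part in it was not tested.

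XBP1, the factor that IRE1 activates by splicing, went the other way. It had 611, 601 and 542 CPM in VCaP-T and 740, 697 and 718 CPM in VCaP-CT, without overlap, a log2 change of 0.31 ± 0.05 (adjusted p = 1.68e-05). Its flanking genes had a median of 0.54.

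Other genes that recur here are HERPUD1 at chr16:56932048-56944863 (plus strand), MANF at chr3:51385047-51389397 (plus strand), HSPA5 at chr9:125234853-125241330 (minus strand), XBP1 at chr22:28794555-28800597 (minus strand) and CREB3L1 at chr11:46277661-46321422 (plus strand). HERPUD1, a membrane protein that helps to gather the degradation complex, had 170, 168 and 166 CPM in VCaP-T and 68.3, 69.2 and 66.9 CPM in VCaP-CT, and fell by 1.29 ± 0.05 (adjusted p = 4.38e-16). Of the 8 tested members that act in ER-associated degradation 7 fell and none rose. SEL1L, the scaffold of the HRD1 ubiquitin ligase, fell by 1.04 ± 0.06, and SYVN1, the ligase HRD1 itself, fell by 0.39 ± 0.07. EDEM1 and EDEM3, which trim mannose from misfolded glycoproteins, fell by 0.73 ± 0.05 and 0.54 ± 0.06, and the channel components DERL1 and DERL2 by 0.62 ± 0.05 and 0.40 ± 0.07. EDEM2 had a log2 change of −0.04 ± 0.07 and did not pass the test.

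The chaperones divided. CALR, the soluble lectin chaperone, rose from 1067, 1140 and 1202 CPM to 1962, 1889 and 1879 CPM, by 0.76 ± 0.04 on the log2 scale (adjusted p = 2.54e-12). SDF2L1, a partner of HSPA5 cochaperones, rose most, from 8.17, 7.99 and 9.34 CPM to 19.4, 18.6 and 15.4 CPM, by 1.07 ± 0.10 (adjusted p = 7.99e-09), with a median of 0.45 over its flanking genes. HSPA5, the central chaperone and the one that keeps the sensors silent, rose from 512, 545 and 537 CPM to 682, 611 and 641 CPM, by 0.29 ± 0.05 (adjusted p = 2.75e-05). In all 3 genes the libraries of VCaP-CT lay above those of VCaP-T.

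CRELD2 and MANF, ER proteins that are secreted under stress, rose by 0.76 ± 0.08 and 0.51 ± 0.06, and PDIA3, PDIA5 and the cochaperone DNAJB11 by 0.30 ± 0.06, 0.36 ± 0.06 and 0.45 ± 0.06. For PDIA3, a disulfide isomerase that works with the lectin chaperones, the flanking genes had a median of 0.37. The J-domain proteins DNAJC10, DNAJB9 and DNAJC3, which bring substrates to HSPA5, fell by 1.28 ± 0.06, 0.93 ± 0.11 and 0.87 ± 0.08, DNAJC10 with a median of −0.53 over its neighbours. HYOU1, CANX, PDIA6 and SEC61B, a subunit of the translocation channel, fell by 0.26 ± 0.04, 0.20 ± 0.05, 0.17 ± 0.05 and 0.44 ± 0.06, with neighbours of PDIA6 and SEC61B at medians of −0.67 and −0.50. HSP90B1 fell by 0.18 ± 0.06 (adjusted p = 0.0129), a call that was lost without VCaP-T replicate 2 or without VCaP-CT replicate 2, with adjusted p up to 0.073 (edgeR). PDIA4 had a log2 change of 0.06 ± 0.04 and did not pass.

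On the passage from VCaP-CT to VCaP-CT-ER, most of the machinery rose. Of the 32 members 25 were higher and 3 lower in VCaP-CT-ER, against 29.6% and 31.2% of all genes, and 14 were higher and 1 lower by at least 1.5-fold (14.4% and 17.2%). The median log2 fold change was 0.54 over the members and −0.02 over all genes. All 5 members of the folding group, all 4 disulfide isomerases and all 5 cochaperones rose, as did 6 of the 8 degradation genes. Over the 13 alternative fits of this contrast 24 or 25 members were higher and 3 or 4 lower, and no call turned its direction.

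MANF rose most. It had 55.9, 46.0 and 50.6 CPM in VCaP-CT and 135, 131 and 143 CPM in VCaP-CT-ER, a log2 change of 1.37 ± 0.06 (adjusted p = 5.79e-14). HSP90B1, the ER member of the HSP90 family, rose from 1321, 1138 and 1284 CPM to 3054, 3085 and 3284 CPM, by 1.28 ± 0.06 (adjusted p = 1.41e-13), with a median of 0.51 over its flanking genes. HSPA5 rose to 1229, 1181 and 1284 CPM, by 0.88 ± 0.05 (adjusted p = 2.05e-12). No library of VCaP-CT reached one of VCaP-CT-ER in these genes.

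DNAJB11 and DNAJB9 rose by 1.10 ± 0.06 and 1.04 ± 0.11, CRELD2 by 0.90 ± 0.07, HYOU1, the large HSP70 relative that exchanges nucleotides on HSPA5, by 0.88 ± 0.04, and DNAJC3 and SDF2L1 by 0.75 ± 0.08 and 0.72 ± 0.09. HERPUD1 rose to 143, 138 and 143 CPM, by 1.00 ± 0.04 (adjusted p = 4.30e-14), between its levels in VCaP-CT and VCaP-T. DERL2, EDEM1, SEL1L, DERL1 and EDEM3 rose by 0.77 ± 0.07, 0.60 ± 0.05, 0.54 ± 0.06, 0.36 ± 0.05 and 0.32 ± 0.06. PDIA4, PDIA6, PDIA5 and PDIA3 rose by 0.56 ± 0.04, 0.45 ± 0.05, 0.25 ± 0.06 and 0.21 ± 0.06, and the neighbours of PDIA5 had a median of 0.54. SEC61B rose by 0.55 ± 0.06, CANX by 0.38 ± 0.05 and CALR by 0.34 ± 0.04. DNAJC10 rose by 0.15 ± 0.06 (adjusted p = 0.0442), a call that 4 alternatives did not keep.

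The sensors did not move together. EIF2AK3 rose to 29.8, 28.8 and 30.4 CPM, by 0.75 ± 0.07 (adjusted p = 3.05e-09). ERN1, at 26.6, 26.6 and 27.1 CPM, had a log2 change of −0.10 ± 0.07 (adjusted p = 0.229), and ATF6, at 48.5, 49.6 and 54.5 CPM, one of −0.06 ± 0.06 (adjusted p = 0.406). XBP1, at 713, 720 and 755 CPM, had one of −0.03 ± 0.05 (adjusted p = 0.626). The libraries of both sublines overlapped in these 3 genes. SYVN1 had a log2 change of −0.10 ± 0.07, also without passing, and its flanking genes a median of −0.89. EDEM2 was lower by the test, at −0.25 ± 0.07.

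**Figure D3:**
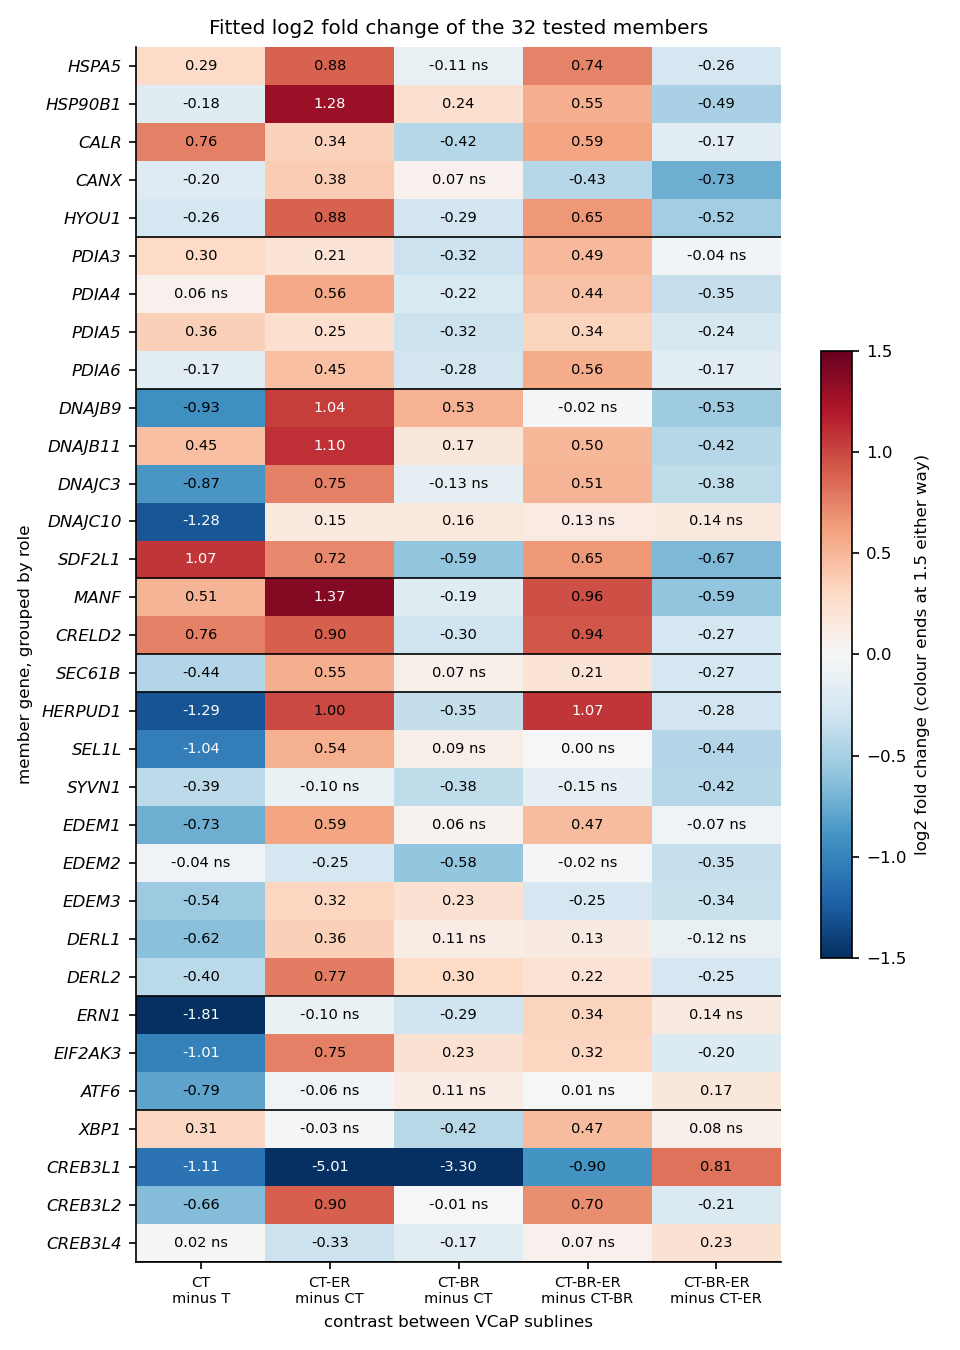
Fitted log2 fold change of the 32 tested members in 5 contrasts between VCaP sublines, by role from top to bottom (chaperones, disulfide isomerases, cochaperones, secreted, translocation, degradation, sensors, factors); "ns" marks an adjusted p of 0.05 or more (edgeR), and colour ends at 1.5 in either direction. The columns of the ENZ steps, CT-ER minus CT and CT-BR-ER minus CT-BR, hold mostly higher values, and CREB3L1 is lower in both.

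The second ENZ step, which led to VCaP-CT-BR-ER, started at VCaP-CT-BR and had 22 members higher and 3 lower, against 21.2% and 21.7% of all genes. By at least 1.5-fold, 8 were higher and 1 lower (8.3% and 8.01%), and the median log2 fold change was 0.39 over the members and 0.00 over all genes. The ENZ steps share no library. Of the members higher in the first step 80% were higher in the second (20 of 25), and of those higher in the second 90.9% were higher in the first (20 of 22). Over all genes tested these shares were 34.4% and 47.9%. Of all members 62.5% were higher in both steps, against 10.2% of all genes. The 20 were CALR, CREB3L2, CRELD2, DERL1, DERL2, DNAJB11, DNAJC3, EDEM1, EIF2AK3, HERPUD1, HSP90B1, HSPA5, HYOU1, MANF, PDIA3, PDIA4, PDIA5, PDIA6, SDF2L1 and SEC61B.

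HERPUD1 rose most, from 54.5, 54.1 and 53.2 CPM to 117, 109 and 112 CPM, by 1.07 ± 0.05 on the log2 scale (adjusted p = 6.00e-14). MANF rose from 45.03, 43.60 and 46.92 CPM to 87.2, 86.5 and 89.7 CPM, by 0.96 ± 0.06 (adjusted p = 7.38e-11). HSPA5 rose from 604, 593 and 611 CPM to 1014, 963 and 1034 CPM, by 0.74 ± 0.05 (adjusted p = 1.21e-10). Here too no libraries overlapped. CRELD2 followed at 0.94 ± 0.07, HYOU1 at 0.65 ± 0.04, SDF2L1 at 0.65 ± 0.10, CALR at 0.59 ± 0.04 and HSP90B1 at 0.55 ± 0.06. The 4 disulfide isomerases rose by 0.34 to 0.56, and DNAJC3, DNAJB11 and EDEM1 by 0.51 ± 0.08, 0.50 ± 0.06 and 0.47 ± 0.05.

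CANX, the membrane-bound lectin chaperone, fell. It had 1644, 1533 and 1593 CPM in VCaP-CT-BR and 1216, 1121 and 1199 CPM in VCaP-CT-BR-ER, a log2 change of −0.43 ± 0.05 (adjusted p = 1.06e-06), so that its lowest level among the sublines was in VCaP-CT-BR-ER. Its 20 flanking genes had a median of −0.51, and their part in the fall was not tested. EDEM3 fell by 0.25 ± 0.06. DNAJB9, SEL1L, SYVN1, EDEM2, DNAJC10, CREB3L4 and ATF6 did not pass the test, with log2 changes between −0.15 and 0.13. DERL1, DERL2 and SEC61B rose by 0.13 ± 0.05, 0.22 ± 0.07 and 0.21 ± 0.06, calls that were each lost in at least 1 alternative.

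Among the sensors and XBP1, ATF6 alone did not pass in the second step. ERN1 rose from 23.0, 22.7 and 22.5 CPM to 31.7, 27.6 and 26.6 CPM, by 0.34 ± 0.07 (adjusted p = 0.00034). EIF2AK3 rose from 21.4, 19.2 and 19.8 CPM to 26.8, 23.3 and 25.1 CPM, by 0.32 ± 0.07 (adjusted p = 0.000404). XBP1 rose from 557, 538 and 537 CPM to 761, 729 and 761 CPM, by 0.47 ± 0.05 (adjusted p = 1.61e-07), and its mean of 750 ± 18.3 CPM (SD, n = 3) was its highest among the sublines, with libraries that overlapped those of VCaP-CT-ER and of VCaP-CT. ATF6, at 55.9, 54.5 and 57.1 CPM before and 56.4, 53.0 and 57.9 CPM after the step, had a log2 change of 0.01 ± 0.06 (adjusted p = 0.962).

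Whether a step depended on the starting subline was tested directly, as the step from VCaP-CT-BR minus the step from VCaP-CT. The difference passed for 19 members, 6 with a higher and 13 with a lower value from VCaP-CT-BR (25.2% and 24.5% of all genes). The median was −0.12 over the members. Apart from CREB3L1, the largest differences were those of DNAJB9 (−1.06 ± 0.15), CANX (−0.80 ± 0.07) and HSP90B1 (−0.73 ± 0.09). XBP1 (0.50 ± 0.07), ERN1 (0.43 ± 0.10) and CREB3L4 (0.40 ± 0.07) had a higher value from VCaP-CT-BR. EIF2AK3 (−0.43 ± 0.09) had a lower one. For HERPUD1 the difference was 0.07 ± 0.06 and for CRELD2 0.04 ± 0.10, and neither passed.

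**Figure D4:**
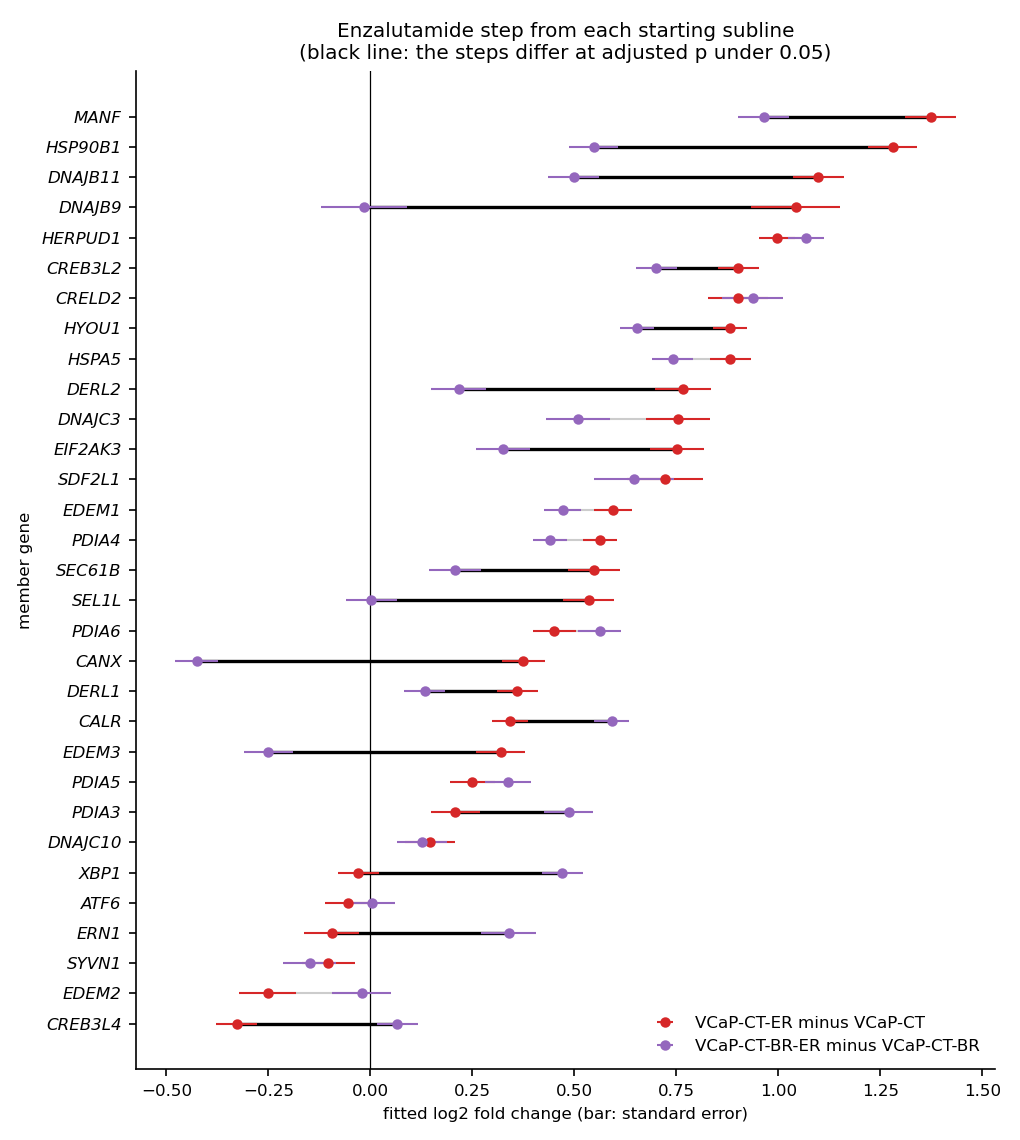
Fitted log2 fold change with its standard error for 31 members in the ENZ step from VCaP-CT (red) and from VCaP-CT-BR (purple), with CREB3L1 left out for scale; a black line marks members whose steps differed (adjusted p under 0.05, edgeR). Most members lie to the right of 0 in both steps, and CANX and EDEM3 passed the test on opposite sides.

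The promoters of several members hold short sequences that were described as binding ATF6 or XBP1, in part together with NF-Y. In the RefSeq table of promoter windows (GRCh38.p14, 250 bases before to 50 bases after a transcription start, 27305 genes) 31 members had a window. The ER stress response element, CCAAT and CCACG with 9 bases between them on either strand, was found in 7 of these 31, HSPA5, HSP90B1, CALR, CANX, PDIA6, XBP1 and CRELD2, and in 0.0916% of all genes. Element II, ATTGG and CCACG with 1 base between them, was in SDF2L1, HYOU1 and HERPUD1, and in 0.0696% of all genes. It was added to the search after the values were seen. The site TGACGTGG was in DNAJC10 and HYOU1 (0.927% of all genes), in HYOU1 overlapping an element II on the other strand. ATTNCATCA, the C/EBP-ATF response element, was in none of the 31 and in 1.22% of all genes. The ER stress response element and element II were worked out on members of this very family, so their share among the members is no finding of the data. Nothing is read from the shares of the other sequences either, and a match describes letters and not a bound site. The promoter window of HSPA5 is shown in full, since its RNA stands for the response in most studies, with the element in capitals (chr9:125241294-125241593, minus strand, 5′ to 3′).
HSPA5: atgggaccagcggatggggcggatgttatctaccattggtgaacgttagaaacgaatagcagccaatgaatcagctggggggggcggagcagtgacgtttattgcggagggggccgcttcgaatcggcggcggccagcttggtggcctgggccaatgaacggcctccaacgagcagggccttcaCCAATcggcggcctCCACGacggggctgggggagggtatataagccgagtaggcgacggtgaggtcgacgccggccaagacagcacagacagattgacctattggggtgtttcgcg
The element of the other genes is shown with 12 bases on either side, read so that CCAAT or ATTGG comes first, with the fixed bases in capitals.
HSP90B1: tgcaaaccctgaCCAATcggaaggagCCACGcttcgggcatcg
CALR: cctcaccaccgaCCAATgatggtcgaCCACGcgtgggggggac
CANX: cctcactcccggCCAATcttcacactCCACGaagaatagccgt
PDIA6: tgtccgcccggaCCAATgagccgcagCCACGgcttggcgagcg
XBP1: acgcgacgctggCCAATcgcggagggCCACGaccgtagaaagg
CRELD2: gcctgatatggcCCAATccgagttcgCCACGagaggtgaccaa
SDF2L1: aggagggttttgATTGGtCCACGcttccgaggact
HYOU1: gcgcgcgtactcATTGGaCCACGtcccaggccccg
HERPUD1: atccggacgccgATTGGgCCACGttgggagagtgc
Distances below run from the first base of the element on the gene's strand, without its flanking bases, to the transcription start in the RefSeq window. This RefSeq start can differ from the outer end of the gene in the annotation of the count files. On GRCh38 the printed stretches lie for HSP90B1 at chr12:103930204-103930246 on the plus strand, 194 bases before the RefSeq start, CALR at chr19:12938372-12938414 on the minus strand, 225 bases before the RefSeq start, and CANX at chr5:179698766-179698808 on the plus strand, 151 bases before the RefSeq start. Next come PDIA6 at chr2:10812841-10812883 on the minus strand, 86 bases before the RefSeq start, XBP1 at chr22:28800591-28800633 on the minus strand, 52 bases before the RefSeq start, and CRELD2 at chr22:49918542-49918584 on the minus strand, 80 bases before the RefSeq start. Element II is printed for SDF2L1 at chr22:21642102-21642136 on the minus strand, 188 bases before the RefSeq start, HYOU1 at chr11:119057262-119057296 on the plus strand, 79 bases before the RefSeq start, and HERPUD1 at chr16:56932013-56932047 on the plus strand, 117 bases before the RefSeq start.
By the gene ends of the count files, the stretches of HSP90B1, CANX, PDIA6 and CRELD2 lie within the gene, that of XBP1 runs into it, and the others lie outside. HSP90B1 carries a second copy 89 bases before the RefSeq start, on the other strand, and HYOU1 a second element II 185 bases before it. Of the 7 genes with the first element, XBP1 did not rise in the step from VCaP-CT and CANX fell in the other, but 78.1% and 68.8% of all tested members rose in these steps, so nothing particular to the element is read from this. MANF, DNAJB11 and CREB3L2, which rose in both, had none of these sequences in the window.

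The changes that came with bicalutamide were mostly downward. In VCaP-CT-BR against VCaP-CT, 16 members were lower and 7 higher, against 27% and 26.1% of all genes. A change of at least 1.5-fold was reached by 2 lower members, CREB3L1 and SDF2L1, and by 0 higher ones (13.6% and 8.23% of all genes). The median log2 fold change was −0.15 over the members and −0.02 over all genes. Without VCaP-CT-BR replicate 1 the higher members numbered 4, since DNAJB11, DNAJC10 and EIF2AK3 no longer passed.

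DNAJB9 rose from 9.68, 8.85 and 11.7 CPM to 14.54, 13.95 and 15.64 CPM, by 0.53 ± 0.11 (adjusted p = 0.000429), with a median of 0.36 over its flanking genes. DERL2 rose from 18.5, 16.9 and 18.1 CPM to 23.2, 21.3 and 22.2 CPM, by 0.30 ± 0.07 (adjusted p = 0.0012). SDF2L1 fell to 10.7, 13.1 and 11.9 CPM, by 0.59 ± 0.10 (adjusted p = 3.50e-05). EDEM2 fell by 0.58 ± 0.07, CALR by 0.42 ± 0.04, XBP1 by 0.42 ± 0.05, HERPUD1 by 0.36 ± 0.05 and ERN1 by 0.29 ± 0.07, with a median of −0.22 over the flanking genes of XBP1. The 4 disulfide isomerases fell by 0.22 to 0.32, and CRELD2, HYOU1, SYVN1, MANF and CREB3L4 by 0.17 to 0.38, of which MANF and CREB3L4 lost their calls in 3 and 1 alternatives. HSPA5 had a log2 change of −0.11 ± 0.05 and did not pass (adjusted p = 0.0572), while HSP90B1 was higher by 0.24 ± 0.06 with a median of 0.25 over its flanking genes. EDEM3 and EIF2AK3 were higher by 0.23 ± 0.06 and 0.23 ± 0.07, and DNAJB11 and DNAJC10 by 0.18 ± 0.06 and 0.16 ± 0.06. CANX, DNAJC3, SEC61B, SEL1L, EDEM1, DERL1, ATF6 and CREB3L2 had log2 changes between −0.13 and 0.11 that did not pass.

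The CREB3 family supplied both the largest fall and a rise. These factors sit in the ER membrane and are cut in the Golgi as ATF6 is. CREB3L1, known for its part in the secretory pathway of collagen-making cells, had 120, 116 and 135 CPM in VCaP-T and 55.8, 61.7 and 53.5 CPM in VCaP-CT. VCaP-CT-ER had 1.64, 1.78 and 2.09 CPM. In the bicalutamide line it had 5.25, 5.93 and 6.32 CPM (VCaP-CT-BR) and then 3.16, 3.15 and 3.07 CPM (VCaP-CT-BR-ER). No subline overlapped another, and the mean of VCaP-T was 67.3 times that of VCaP-CT-ER. The log2 changes were −1.11 ± 0.07 from VCaP-T to VCaP-CT, −5.01 ± 0.10 to VCaP-CT-ER (adjusted p = 3.76e-20), −3.30 ± 0.08 to VCaP-CT-BR (adjusted p = 3.63e-17) and −0.90 ± 0.11 from there to VCaP-CT-BR-ER, and the ENZ steps differed by 4.12 ± 0.15. Its flanking genes had medians of −0.32 and −0.48 in the steps to VCaP-CT-ER and VCaP-CT-BR, and the lowest of the 20 genes had −3.34 and −3.58. Their part in the fall was not tested.

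CREB3L2 fell by 0.66 ± 0.05 from VCaP-T to VCaP-CT and rose in both ENZ steps, from 49.96, 50.81 and 49.96 CPM to 95.8, 95.8 and 100 CPM and from 50.6, 49.4 and 51.5 CPM to 84.9, 78.2 and 82.1 CPM, by 0.90 ± 0.05 and 0.70 ± 0.05. CREB3L4, a family member of the prostate whose expression is known to depend on androgen, had 252, 258 and 254 CPM in VCaP-CT and 210, 216 and 205 CPM in VCaP-CT-ER, and fell by 0.33 ± 0.05 (adjusted p = 1.01e-05). It had 267, 256 and 235 CPM in VCaP-T, which overlapped VCaP-CT. CREB3L4 shares its position with SLC39A1 and JTB on the opposite strand, and the counting did not use strand.

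**Figure D5:**
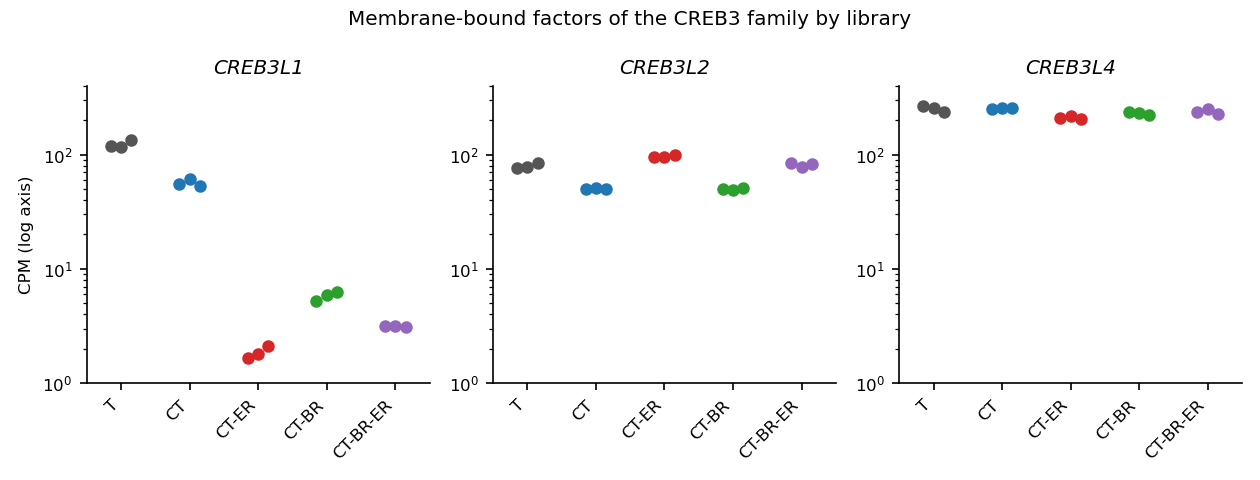
CPM on a log axis of CREB3L1, CREB3L2 and CREB3L4 in each library (points) of the 5 VCaP sublines. CREB3L1 drops from 116 to 135 CPM in VCaP-T to 1.64 to 2.09 CPM in VCaP-CT-ER, while CREB3L4 keeps within 205 to 267 CPM.

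The ENZ-resistant endpoints also differed from each other. In VCaP-CT-BR-ER against VCaP-CT-ER, 23 members were lower and 3 higher, against 22.7% and 23.3% of all genes, and the median log2 fold change was −0.26 against 0.00. CANX (−0.73 ± 0.05, adjusted p = 2.42e-10) and SDF2L1 (−0.67 ± 0.09, adjusted p = 4.08e-06) were lowest against VCaP-CT-ER, the latter at 17.8, 19.7 and 18.3 CPM against 33.9, 30.3 and 27.1 CPM. CANX had 1950, 1951 and 2149 CPM in VCaP-CT-ER, above all its libraries in VCaP-CT-BR-ER. The flanking genes of CANX and SDF2L1 had medians of −0.34 and −0.36. MANF, DNAJB9, HYOU1 and HSP90B1 were lower by 0.59 ± 0.06, 0.53 ± 0.10, 0.52 ± 0.04 and 0.49 ± 0.06 on the log2 scale. The 3 higher members were CREB3L1 (0.81 ± 0.13), CREB3L4 (0.23 ± 0.05) and ATF6 (0.17 ± 0.06), of which ATF6 overlapped between the sublines and lost its call in 5 alternatives. CREB3L4 had 239, 250 and 229 CPM in VCaP-CT-BR-ER, above its libraries in VCaP-CT-ER. PDIA3, with 531, 506 and 565 CPM against 555, 542 and 597 CPM, had a log2 change of −0.04 ± 0.06 and did not pass, nor did EDEM1, DERL1, XBP1, ERN1 and DNAJC10, at log2 changes between −0.12 and 0.14.

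Genes of the same pathway outside the 34 were described by lists. The lists were chosen with earlier results of these data known, so their counts describe and do not test. The PERK and ATF4 branch, which holds the target of the kinase PERK, the factors made under it and genes they induce, fell from VCaP-T to VCaP-CT, with 15 of 15 lower against 32.2% of all genes and a median log2 fold change of −2.12, and the count was 15 in all 13 alternative fits. ATF3, a stress-induced repressor in that branch, went from 25.6 ± 1.48 to 1.40 ± 0.135 CPM (SD, n = 3), a log2 change of −4.18 ± 0.11 (adjusted p = 3.50e-18). In the step from VCaP-CT to VCaP-CT-ER 11 were higher and 1 lower, with a median of 0.53, against 29.6% and 31.2% of all genes. In the step from VCaP-CT-BR 12 were higher and 0 lower (up to 1 lower in the alternative fits), with a median of 0.46, against 21.2% and 21.7%. These shares of all genes for the ENZ steps apply to each list below, as do 33.1% higher and 32.2% lower from VCaP-T to VCaP-CT. VLDLR, a lipoprotein receptor, rose most in both ENZ steps, by 3.25 ± 0.06 and 1.82 ± 0.06. TRIB3 was the lower gene of the first step, with a log2 change of −0.44. The rises did not bring the list as a whole back to VCaP-T. In VCaP-CT-ER, ATF3 had 4.19 CPM and TRIB3 69.2 CPM, against 25.6 and 581 CPM in VCaP-T. VLDLR had 105 CPM against 47.2. From VCaP-CT to VCaP-CT-BR 5 of the 15 genes were higher and 9 lower, and 3 to 5 and 6 to 9 over the alternative fits, against 26.1% and 27% of all genes.

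Of 39 genes of N-glycosylation and translocation, 30 were higher and 2 lower (0 to 3 over the alternative fits) in VCaP-CT-ER than in VCaP-CT, with a median of 0.50, led by SPCS3, a subunit of the signal peptidase, at 1.35 ± 0.06. In the step from VCaP-CT-BR 17 were higher and 2 lower, with a median of 0.13. The steps differed for 28 of the 39 genes, 25 of them with the lower value from VCaP-CT-BR. Over all genes 24.5% had a lower and 25.2% a higher value from VCaP-CT-BR by this test. SPCS3 differed most, by −1.18 ± 0.09.

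A list of 32 further folding and redox enzymes was more mixed. It had 18 higher and 11 lower in the first ENZ step (median 0.25), with ERO1A, the oxidase that recharges disulfide isomerases, at 1.25 ± 0.07 and SIL1, an exchange factor of HSPA5, at −1.13 ± 0.06, and 14 higher and 6 lower in the second (median 0.11). Other ER-associated degradation genes, 21 tested of 22, had 11 higher and 6 lower (3 to 6 over the alternative fits) in the first step (median 0.17) and 9 higher and 6 lower in the second (median 0.10), and 4 higher and 12 lower from VCaP-T to VCaP-CT. RNF5, the ligase of that list that was not tested, had 0 CPM in every subline and did not pass the filter on low counts. As with ATF6B and DERL3, this is not read as a level of the gene.

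The 24 genes of ER export and retrieval had 11 higher and 7 lower in the first step (median 0.07) and 13 higher and 6 lower in the second (median 0.15), and 5 higher and 18 lower (median −0.30) from VCaP-T to VCaP-CT, where KDELR3, a receptor that returns escaped ER proteins, had a log2 change of −1.79 ± 0.14. A mixed list held the proteases that cut ATF6 and the CREB3 family (MBTPS1, MBTPS2), the factors CREB3 and CREB3L3, RTCB and TRAF2, which act with IRE1, the ER membrane protein WFS1 and the apoptosis gene BBC3, and 7 of the 8 were tested. In the first step 2 were higher, led by CREB3 at 0.44 ± 0.05, and 3 lower (1 to 3 over the alternative fits), and in the second the one higher gene was BBC3 at 0.77 ± 0.13.

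Some members lie on top of other genes, and fragments that fit more than one gene were not counted. DNAJB9 overlaps PNPLA8 and THAP5, CRELD2 overlaps ALG12, DERL2 overlaps MIS12, and PDIA3 overlaps CATSPER2P1 and ELL3. SYVN1 overlaps FAU and MRPL49, and HSP90B1 overlaps TTC41P and UQCC6. PDIA6 overlaps ATP6V1C2, DNAJB11 overlaps TBCCD1, DERL1 overlaps TBC1D31, and EIF2AK3 overlaps EIF2AK3-DT. CANX overlaps CBY3, PDIA5 overlaps SEC22A, and CREB3L2 overlaps CREB3L2-AS1. Further members overlap other annotated transcripts that are not named here. HSPA5, PDIA3 and XBP1 have pseudogenes by name, with which fragments can be shared. Levels of all members with an overlap or a pseudogene are uncertain to that extent.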

How the data were processed

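RNA from 5 VCaP sublines, 3 libraries each, was sequenced on an Illumina HiSeq. The authors aligned reads with STAR 2.5.4b and deposited raw counts per gene from featureCounts 1.6.2 with GENCODE 28 on GRCh38. Per the file headers, strand was not used, and fragments that mapped to several places or overlapped several genes were left out of the counts.

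Groups were taken from the sample labels. The 34 members and all lists were chosen with earlier results of these data known. Identifiers were matched to symbols through GENCODE 44, which named 98.9% of the 58381 genes. Genes were filtered with filterByExpr (minimum count 10, 19621 kept) and tested with edgeR 4.0.16 in R 4.3.3, by TMM scaling and the quasi-likelihood test with a term per subline over all 15 libraries, Benjamini-Hochberg adjustment and 0.05 as the threshold. A standard error is the fitted log2 change divided by the square root of its F statistic. The procedure was tested on simulated data. CPM used library totals, TPM the gene lengths in the files. All members were accounted for. Values in every library were given for ERN1, EIF2AK3, ATF6, XBP1, HSPA5 and, per contrast, the 2 members that rose and the 2 that fell most without overlap between libraries, and for others after their values were seen. In the lists, genes were named only where they changed most.

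Alternatives were DESeq2 1.42.0, upper quartile scaling, library totals alone, no filter, a filter of 10 counts in every library, only the sublines compared, a block for replicate number, and each library left out in turn. Neighbours were the 20 nearest tested genes. Figures were drawn with matplotlib 3.10.9.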

Additional observations from a re-analysis of the deposited data

Results flagged for a closer look

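For 19 members the ENZ step differed between its starting sublines by the test of the difference itself, given here as the log2 step from VCaP-CT-BR minus that from VCaP-CT. Among the chaperones the difference was −0.80 for CANX, −0.73 for HSP90B1, 0.25 for CALR and −0.23 for HYOU1. The disulfide isomerase PDIA3 had 0.28, the cochaperones DNAJB9 and DNAJB11 had −1.06 and −0.60, and MANF had −0.41. For SEC61B it was −0.34. In the degradation group it was −0.57 for EDEM3, −0.55 for DERL2, −0.53 for SEL1L and −0.23 for DERL1. Of the sensors, EIF2AK3 had −0.43 and ERN1 0.43. Of the factors, XBP1 had 0.50, CREB3L4 0.40 and CREB3L2 −0.20. CREB3L1 had 4.12, from log2 changes of −5.01 and −0.90. The difference for CREB3L2 was lost without the filter on low counts, without VCaP-CT-BR-ER replicate 2 and without VCaP-CT-ER replicate 3, with adjusted p up to 0.0643 (edgeR).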

How the results depend on the processing

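The 32 tested members gave 150 calls over the contrasts and the difference of the ENZ steps, and 2064 values of them under the alternatives. Of these values 2025 kept their direction and their side of the threshold, 39 were no longer past it, and 0 turned, and 14 of the 150 calls were lost in at least 1 alternative. The number of members higher in VCaP-CT-BR than in VCaP-CT ran from 4 to 7 with 1 library left out, the lowest without VCaP-CT-BR replicate 1. Without mitochondrial genes in the denominator the members' share of the library was 0.950% for VCaP-T, 0.930% for VCaP-CT, 1.45% for VCaP-CT-ER, 0.864% for VCaP-CT-BR and 1.12% for VCaP-CT-BR-ER. Replicate numbers did not pair the libraries: deviations from subline means correlated above 0.1 in 12 of 30 pairs with the same number (mean −0.00777, against 0.00254 for other pairs). Single pairs with the same number ran from −0.694 to 0.727. Deviations that libraries of different sublines share apart from the number were not modelled. With a replicate block, 25 members were higher in VCaP-CT-ER than in VCaP-CT and 22 higher in VCaP-CT-BR-ER than in VCaP-CT-BR, and it changed none of the 150 calls. At these depths the p-values are limited by the spread of 3 libraries per subline. More libraries would not separate treatment from derivation, since 1 derivation of each subline is described. For a gene at 0 or 1 count, such as DERL3 and ATF6B, no level is given.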
